A study of Mus musculus with 8 samples.

Results

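Mitochondrial ribosomal protein genes were taken as every row of the count table whose symbol is Mrpl or Mrps followed by a number and at most 1 letter. This gave 78 genes of 24516, of which 49 carry the large-subunit symbol Mrpl and 29 the small-subunit symbol Mrps. The table comes from bulk RNA sequencing of mouse hearts at postnatal day 40. It covers 3 hearts homozygous for a CRISPR/Cas9 deletion of a conserved enhancer of Actn2, the gene of the sarcomeric actin cross-linker alpha-actinin 2 (HOMO), 3 hearts heterozygous for it (HET) and 2 wild-type hearts (WT). The labels speak of hearts of the same litter. The labels give neither strain nor sex, and do not say whether the deletion animals trace back to 1 founder.

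Mitochondria carry their own ribosome, the mitoribosome, which makes the few proteins encoded by mitochondrial DNA, all of them subunits of the respiratory chain and ATP synthase. Its RNAs come from mitochondrial DNA, whereas its proteins are encoded in the nucleus, made in the cytosol and imported. The large subunit forms the peptide bond and holds the exit tunnel, and the small subunit binds and decodes the messenger RNA. Heart muscle depends on oxidative phosphorylation, and human mutations in several of these genes cause mitochondrial disease, some of it with cardiomyopathy.

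The symbols do not map onto the structure in 3 cases. Mrps30 and Mrps18a are parts of the large subunit in the known structures, and Mrps36 is a subunit of the oxoglutarate dehydrogenase complex, so the structure gives 51 large and 26 small members. The comparisons follow the symbols unless the structure is named.

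Libraries held 22230090 to 55902737 counts, and all 78 members passed the low-count filter that left 15075 genes in the test. Levels are counts per 1000000 counts after TMM scaling (CPM). The wild-type hearts stood apart from each other. On the first principal component of the log2 levels, which took 35.9% of the variance, WT 2 scored 61.4, WT 1 scored 10.8 and the deletion hearts scored -14.2 to -7.87. WT 2 exceeded WT 1 in 40 of 49 Mrpl genes and 24 of 29 Mrps genes, with median log2 differences of 0.27 and 0.39, against 0.00 over all genes tested. Markers of atrial muscle differed as well: 4 of 7 tested were lower and 1 was higher in each deletion genotype. The median log2 fold change over the 7 was -2.925 in HOMO and -2.942 in HET, so genotype and the share of atrial tissue cannot be told apart here. Each comparison with wild type is also given without WT 2, which leaves 1 wild-type heart. Per the series' design text, the reads of both wild-type libraries were lost to file corruption and only their counts remain. Actn2 stood at 2115, 1611 and 1791 CPM in HOMO hearts, 1693, 1546 and 1638 CPM in HET hearts, and 2187 and 2703 CPM in WT hearts.

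Summed over the subunit, the Mrpl genes took 3271, 3284 and 3429 CPM in HOMO hearts, 3678, 3176 and 3393 CPM in HET hearts, and 3664 and 4737 CPM in WT hearts. The Mrps genes summed to 1465, 1414 and 1493 CPM in HOMO hearts, 1599, 1361 and 1436 CPM in HET hearts, and 1670 and 2312 CPM in WT hearts. For both subunits WT 2 was the highest heart; WT 1 lay above all HOMO hearts, and it fell just below HET 1 for the large subunit. The ratio of the large-subunit sum to the small-subunit sum was 2.23 to 2.32 in HOMO hearts, 2.30 to 2.36 in HET hearts, and 2.19 and 2.05 in WT hearts, so both wild-type hearts had the lowest ratios. In bulk tissue, fewer cells of a type and less RNA per cell cannot be told apart.

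Levels per length differed widely among members. CPM per kilobase of the median coding transcript was highest for Mrpl42 in the large subunit, at 400.5 over all 8 hearts, and lowest for Mrpl19, at 6.32. In the small subunit it was highest for Mrps21, at 228, and lowest for Mrps25, at 6.77. These levels are uncertain, since pseudogene copies match the coding sequence of Mrpl42 and Mrps21, and exons on the other strand cover 36.0% of the exonic bases of Mrpl19 and 69.8% of those of Mrps25. Mrpl19 and Mrps25 also have the longest median transcripts of the members, at 5000 and 6073 bases, of which 4090 and 5497 are 3' UTR. Of these 4 extremes only Mrps21 was called against wild type as counted. Mrpl42 had 243, 254 and 265 CPM in HOMO hearts, 319, 232 and 285 CPM in HET hearts, and 240 and 281 CPM in WT hearts, and the groups overlapped.

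**Figure D1:**
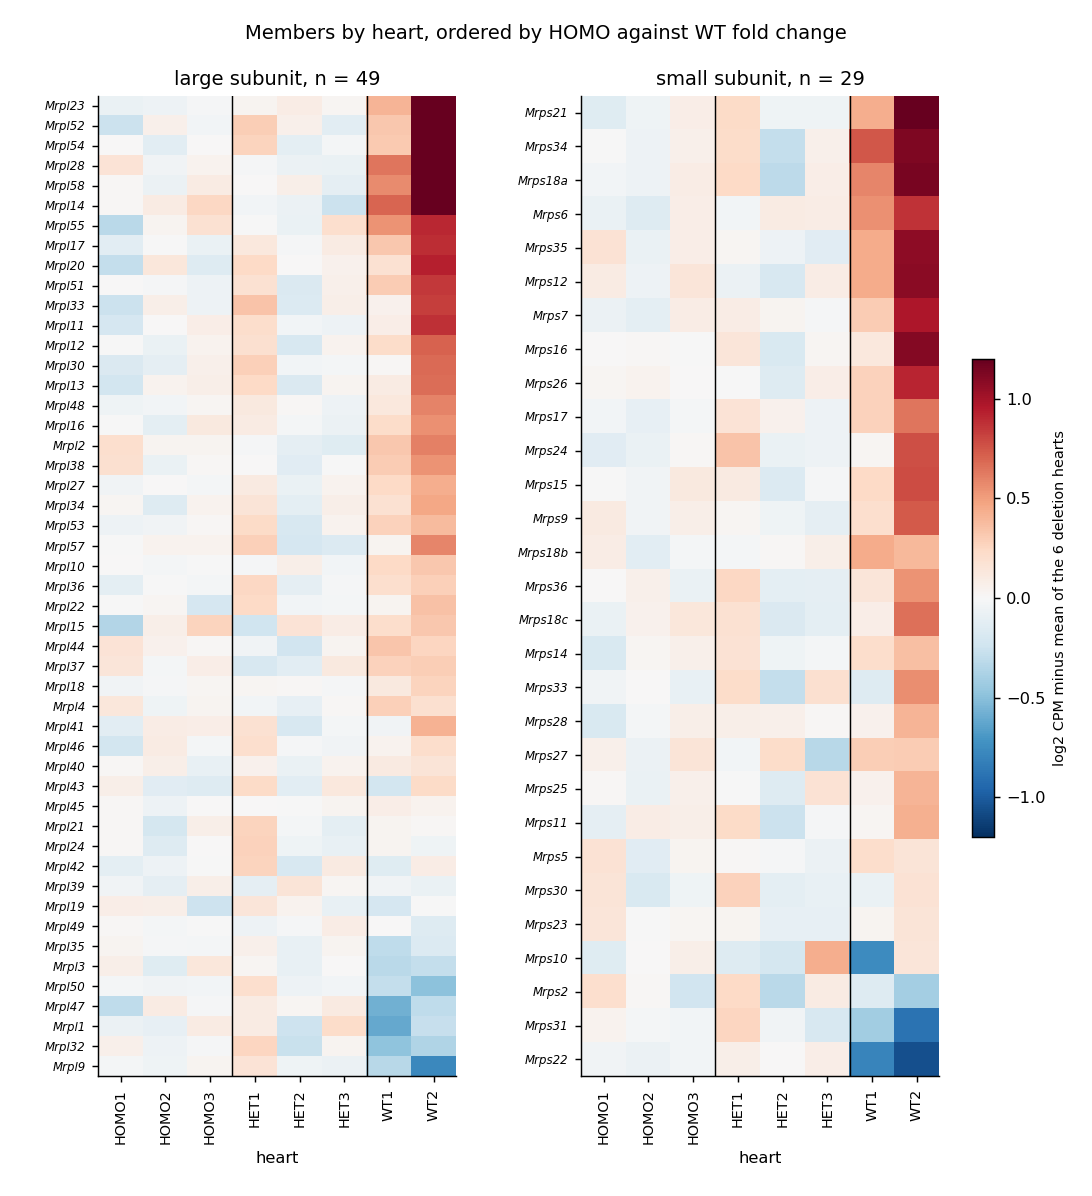
Each row is a member and each column a heart, with HOMO, HET and WT from left to right; colour is log2 CPM minus the mean of the 6 deletion hearts, and values beyond the ends of the colour bar take the end colours. Most rows are red in WT 2 and paler red in WT 1, and the few blue rows at the bottom of each panel include Mrpl9, Mrps31 and Mrps22.

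Set against wild type, more members were lower than higher in HOMO hearts. Of the 49 Mrpl genes 14 were lower and 1 was higher, and of the 29 Mrps genes 13 were lower and 2 were higher (edgeR quasi-likelihood test, adjusted p below 0.05 over all genes tested). That is 34.6% of the members lower and 3.85% higher, where 12.4% of all genes tested were lower and 15.3% higher. The median log2 fold change was -0.29 for the Mrpl genes and -0.36 for the Mrps genes, beside -0.03 over all genes. Every HOMO heart lay below both WT hearts in 28 Mrpl and 17 Mrps genes, and above both in 7 and 2; over all genes these shares were 27.2% and 27.6%. Sorted by the structure, the counts were 15 lower and 1 higher of 51 large-subunit members, and 12 lower and 2 higher of 26 small-subunit members.

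HET hearts gave nearly the same counts against the same 2 wild-type hearts. There were 12 lower and 3 higher Mrpl genes, and 13 lower and 2 higher Mrps genes, where 12.8% of all genes tested were lower and 15.2% higher. The medians were -0.29 and -0.37. HET hearts lay wholly below WT in 25 Mrpl and 15 Mrps genes and wholly above in 7 and 2, beside 25.6% and 25.7% of all genes. Both comparisons share the wild-type hearts, so that their calls are not independent. Lower in both genotypes were 11 Mrpl and 13 Mrps genes, and higher in both were Mrpl9, Mrps22 and Mrps31. The share of all genes called in both genotypes was not counted, so these numbers have no background to be judged by.

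The counts of lower members depended on which wild-type heart was used. Without WT 2, HOMO hearts had 4 lower Mrpl and 2 lower Mrps genes (background 3.58%), and HET hearts had 3 and 2 (background 4.62%). The higher counts were then 1 and 1 in HOMO hearts (background 10.1%) and 2 and 1 in HET hearts (background 10.5%). Without WT 1, 22 Mrpl genes were lower in each deletion genotype, with 17 Mrps genes in HOMO (background 16.6%) and 16 in HET (background 16.7%). Leaving out single HOMO hearts gave 6 to 8 lower Mrpl genes in HOMO, and 7 lower Mrps genes without HOMO 2 or HOMO 3 (background 6.6% to 7.6%). In HET the lower Mrpl and Mrps genes were 5 and 6 without HET 2 (background 7.45%), and 7 and 7 without HET 3 (background 7.83%).

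**Figure D2:**
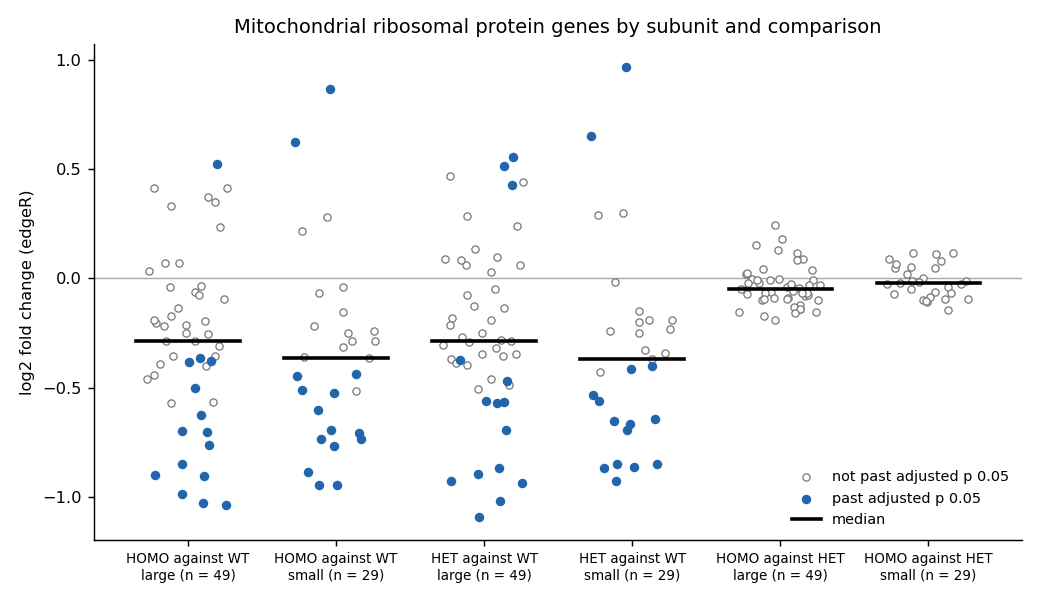
Log2 fold changes (vertical axis) of the members in each comparison, with the large and small subunits apart; filled points passed the adjusted p of 0.05 and bars are medians. Against WT the medians lie between -0.37 and -0.29 in both deletion genotypes, and for HOMO against HET they are -0.05 and -0.02, where no point is filled.

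Among the members that rose, Mrps22 stood out. It encodes a small-subunit protein that bacteria lack, and its human mutations cause mitochondrial disease. The gene (ENSMUSG00000032459.9, chromosome 9, 98588730 to 98601660, minus strand, GRCm38) had 24.4, 23.9 and 24.5 CPM in HOMO hearts, 26.4, 25.1 and 26.5 CPM in HET hearts, and 14.5 and 12.1 CPM in WT hearts. All deletion hearts lay above both wild-type hearts, and the HOMO hearts lay just below the HET hearts. It was 1.82-fold of wild type in HOMO (log2 0.87, SE 0.14, adjusted p = 0.00202, edgeR) and 1.96-fold in HET (log2 0.97, SE 0.14, adjusted p = 0.00111). Under the 18 alternatives run it kept both calls, with log2 values of 0.75 to 1.01 in HOMO and 0.77 to 1.11 in HET.

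Mrps31, another small-subunit protein without a bacterial counterpart, had 53.7, 51.3 and 50.9 CPM in HOMO hearts, 62.5, 50.7 and 45.8 CPM in HET hearts, and 39.2 and 28.2 CPM in WT hearts. The groups did not overlap. The log2 fold change was 0.62 in HOMO (SE 0.17, adjusted p = 0.0215, edgeR) and 0.65 in HET (SE 0.17, adjusted p = 0.0178). The HOMO call was lost without HOMO 1, HOMO 2, HOMO 3 or WT 2 (0.60, 0.64, 0.64 and 0.44, adjusted p = 0.0628, 0.0509, 0.0564 and 0.119), and the HET call without WT 2 (0.46, adjusted p = 0.0957).

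Mrpl9, a large-subunit protein with a bacterial counterpart, had 87.0, 85.3 and 90.7 CPM in HOMO hearts, 99.1, 85.3 and 84.5 CPM in HET hearts, and 70.3 and 51.8 CPM in WT hearts. Its log2 fold change was 0.52 in HOMO (SE 0.15, adjusted p = 0.0235, edgeR) and 0.55 in HET (SE 0.15, adjusted p = 0.0181). The HOMO call was lost when any HOMO heart was left out (adjusted p = 0.0592, 0.0507 and 0.0753 without HOMO 1, 2 and 3). It was also lost in both genotypes without WT 2 (0.35 and 0.38, adjusted p = 0.118 and 0.0879).

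Mrpl47 and Mrpl50, both large-subunit proteins, were higher in HET hearts only by the count of calls, and the difference between the genotypes did not pass for either (adjusted p = 0.9996, edgeR). Mrpl47 had 24.15, 31.96 and 29.57 CPM in HOMO hearts, 31.99, 30.34 and 32.15 CPM in HET hearts, and 20.1 and 24.1 CPM in WT hearts, with log2 fold changes of 0.37 in HOMO (adjusted p = 0.0984) and 0.51 in HET (adjusted p = 0.0325). Mrpl50 had 77.9, 76.9 and 77.4 CPM in HOMO hearts, 91.6, 76.2 and 77.3 CPM in HET hearts, and 64.9 and 56.6 CPM in WT hearts, with log2 fold changes of 0.35 (adjusted p = 0.0597) and 0.43 (adjusted p = 0.0280). The HET call of Mrpl47 was lost without HOMO 3, any HET heart or WT 1 (adjusted p = 0.0521 to 0.11), and that of Mrpl50 without HOMO 3, HET 1 or WT 2 (0.0512, 0.0532 and 0.11).

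Of the members that fell, Mrpl58 was the one that kept its call in both genotypes under the 18 alternatives. It encodes a peptidyl-tRNA hydrolase that is built into the large subunit and frees nascent chains from stalled mitoribosomes. The gene (ENSMUSG00000018858.15, chromosome 11, 115403752 to 115412674, plus strand, GRCm38) had 44.2, 41.8 and 47.1 CPM in HOMO hearts, 44.0, 46.0 and 40.7 CPM in HET hearts, and 65.2 and 100.3 CPM in WT hearts. The deletion hearts lay within a narrow band below both wild-type hearts, which differed more from each other than the deletion hearts did. It was 0.536-fold of wild type in HOMO (log2 -0.90, SE 0.17, adjusted p = 0.00375, edgeR) and 0.526-fold in HET (log2 -0.93, SE 0.17, adjusted p = 0.00305).

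Mrpl28 and Mrpl14, conserved large-subunit proteins, kept their calls in both genotypes whichever heart was left out. Mrpl28 (ENSMUSG00000024181.9, chromosome 17, 26123500 to 26126613, plus strand) had 92.7, 80.5 and 85.4 CPM in HOMO hearts, 81.8, 78.7 and 78.3 CPM in HET hearts, and 129 and 194 CPM in WT hearts. Mrpl14 (ENSMUSG00000023939.7, chromosome 17, 45686322 to 45698495, plus strand) had 75.3, 79.7 and 88.9 CPM in HOMO hearts, 73.0, 70.9 and 62.4 CPM in HET hearts, and 121 and 173 CPM in WT hearts. For both genes every deletion heart was below both wild-type hearts. The log2 fold changes of Mrpl28 were -0.90 in HOMO (SE 0.16, adjusted p = 0.00296, edgeR) and -1.02 in HET (SE 0.16, adjusted p = 0.00153). Those of Mrpl14 were -0.85 (SE 0.16, adjusted p = 0.00375) and -1.09 (SE 0.16, adjusted p = 0.00103).

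Mrpl23, a protein at the exit of the peptide tunnel, had 54.8, 55.5 and 57.4 CPM in HOMO hearts, 59.3, 61.7 and 58.8 CPM in HET hearts, and 77.0 and 152 CPM in WT hearts. Its deletion hearts were nearly alike, and WT 2 stood far above WT 1. It had the lowest log2 fold change of any member in HOMO, -1.04 (SE 0.22, adjusted p = 0.00738, edgeR), and -0.94 in HET (SE 0.22, adjusted p = 0.0112). Without WT 2 the values were -0.43 (adjusted p = 0.0335) and -0.33 (adjusted p = 0.0847). A processed copy, Mrpl23-ps1, matches its coding sequence, so reads could be split between them.

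In the small subunit Mrps34, a protein found only in mitochondria, had 65.4, 63.1 and 68.5 CPM in HOMO hearts, 76.7, 53.7 and 68.7 CPM in HET hearts, and 110 and 143 CPM in WT hearts. The log2 fold change was -0.94 in HOMO (SE 0.16, adjusted p = 0.00270, edgeR) and -0.93 in HET (SE 0.16, adjusted p = 0.00268), and both calls were kept in every leave-out. The strand setting of the counting is not given in the sources used here, and annotated exons of Mapk8ip3 and Nme3 cover 37.0% of the exonic bases of Mrps34 on its own strand and 63.4% on the other, so this level is uncertain.

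Mrps6, a conserved small-subunit protein, had 16.6, 15.8 and 18.6 CPM in HOMO hearts, 17.1, 18.8 and 18.7 CPM in HET hearts, and 25.7 and 32.1 CPM in WT hearts. It changed by -0.77 and -0.67 on the log2 scale in HOMO and HET (adjusted p = 0.00507, edgeR, and 0.00922); the HET call was lost without WT 2 (-0.47, adjusted p = 0.0903). Exons of Slc5a3 and Gm49711 cover 19.9% of its exonic bases on the same strand.

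Mrps35, a mitochondria-specific protein of the small subunit, had 86.1, 72.2 and 81.0 CPM in HOMO hearts, 77.5, 73.4 and 69.8 CPM in HET hearts, and 104 and 161 CPM in WT hearts. It fell by 0.73 on the log2 scale in HOMO (SE 0.17, adjusted p = 0.0101, edgeR) and by 0.85 in HET (SE 0.17, adjusted p = 0.00506). The HET call held under the 18 alternatives, whereas the HOMO call was lost without WT 2 (-0.35, adjusted p = 0.116).

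Mrps12, the counterpart of the bacterial protein at the decoding centre, had 37.4, 33.6 and 38.7 CPM in HOMO hearts, 33.3, 30.6 and 37.2 CPM in HET hearts, and 47.6 and 73.9 CPM in WT hearts. In HOMO its log2 fold change was -0.73 (adjusted p = 0.0123, edgeR) and in HET -0.85 (adjusted p = 0.00620), and both calls were lost without WT 2 (-0.35 and -0.47, adjusted p = 0.168 and 0.0641). Mrps21, the highest small-subunit member per kilobase, had 75.4, 80.3 and 88.1 CPM in HOMO hearts, 97.7, 80.3 and 80.5 CPM in HET hearts, and 113 and 200.4 CPM in WT hearts. It fell by 0.95 in HOMO (adjusted p = 0.00813) and by 0.86 in HET (adjusted p = 0.0119) on the log2 scale, and neither call held without WT 2 (-0.44 and -0.36, adjusted p = 0.0736 and 0.134).

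**Figure D3:**
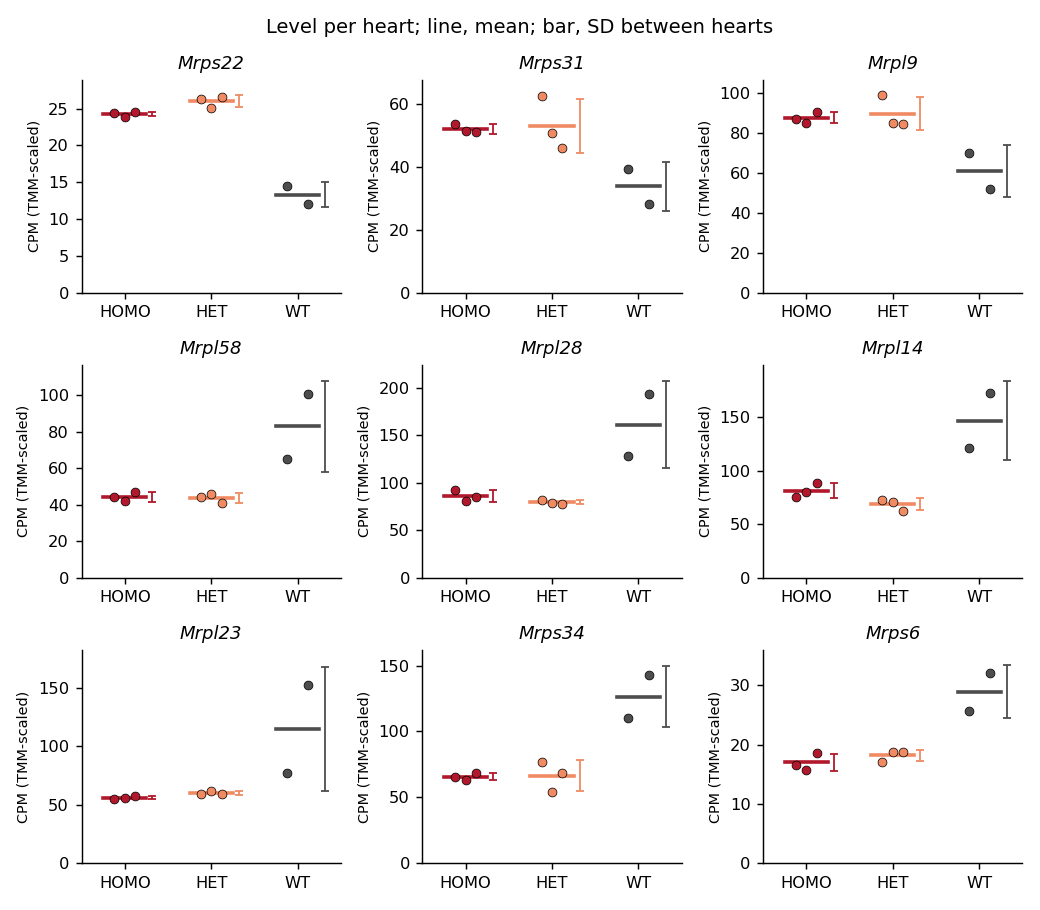
CPM per heart (points) of 9 members, with the mean (line) and SD (bar) of each genotype, HOMO, HET and WT from left to right. In the top row Mrps22, Mrps31 and Mrpl9 lie higher in the deletion hearts; in the other panels the deletion hearts cluster below WT 1, and WT 2 is the highest.

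The stalk that recruits translation factors is formed by Mrpl10 and Mrpl12. Mrpl12 had 206, 196 and 214 CPM in HOMO hearts, 237, 182 and 214 CPM in HET hearts, and 242 and 339 CPM in WT hearts. It passed in HOMO (log2 -0.50, adjusted p = 0.0451, edgeR) but in none of the 3 fits without a HOMO heart, nor without HET 1, HET 2, HET 3 or WT 2 (adjusted p = 0.0519 to 0.438). In HET it was -0.46 (adjusted p = 0.0594, edgeR). Mrpl10 had 52.3, 51.1 and 51.9 CPM in HOMO hearts, 51.6, 54.9 and 51.0 CPM in HET hearts, and 61.3 and 65.01 CPM in WT hearts, with log2 fold changes of -0.29 and -0.27 that did not pass (adjusted p = 0.0675 and 0.0858), although the groups did not overlap.

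The 3 paralogues of bacterial S18 each sit in a different place, Mrps18a in the large subunit and Mrps18b and Mrps18c in the small one. Mrps18a had 57.22, 56.03 and 62.03 CPM in HOMO hearts, 69.2, 46.9 and 61.7 CPM in HET hearts, and 87.5 and 129 CPM in WT hearts. It fell by 0.89 and 0.87 in HOMO and HET on the log2 scale (adjusted p = 0.00693 and 0.00743, edgeR), and neither call held without WT 2 (-0.55 and -0.53, adjusted p = 0.0678 and 0.0715). Mrps18b had 21.56, 18.51 and 19.98 CPM in HOMO hearts, 19.9, 20.4 and 21.3 CPM in HET hearts, and 27.6 and 26.6 CPM in WT hearts; here WT 1 and WT 2 were close. In HOMO the log2 fold change was -0.44 (adjusted p = 0.0320, edgeR) and in HET -0.40 (adjusted p = 0.0463). The HOMO call was lost without HOMO 2, HOMO 3, WT 1 or WT 2 (adjusted p = 0.111, 0.0862, 0.0714 and 0.0994), and the HET call in each of the 8 leave-outs (0.0593 to 0.125). Mrps18c had 28.4, 31.1 and 32.9 CPM in HOMO hearts, 34.0, 26.6 and 27.7 CPM in HET hearts, and 31.7 and 47.4 CPM in WT hearts, which overlap. Neither -0.36 in HOMO nor -0.43 in HET passed on the log2 scale (adjusted p = 0.161 and 0.103, edgeR), and both passed without WT 1 (-0.61 and -0.68, adjusted p = 0.0136 and 0.00793).

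Mrpl3 and Mrpl44 are large-subunit genes whose human mutations cause cardiomyopathy. Mrpl3 had 127, 109 and 132 CPM in HOMO hearts, 122, 113 and 121 CPM in HET hearts, and 96.4 and 98.4 CPM in WT hearts, and every deletion heart was above both wild-type hearts. The log2 fold changes of 0.33 and 0.28 did not pass (adjusted p = 0.0647 and 0.102, edgeR). Mrpl44 had 56.6, 52.3 and 51.0 CPM in HOMO hearts, 49.1, 43.1 and 51.8 CPM in HET hearts, and 63.6 and 60.5 CPM in WT hearts. It passed in HET (-0.37, adjusted p = 0.0423), in none of the 8 leave-outs (0.0554 to 0.142), and not in HOMO (-0.22, adjusted p = 0.202).

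Mrps14 and Mrps16, small-subunit genes mutated in human mitochondrial disease, were also followed. Mrps14 had 46.0, 52.9 and 54.2 CPM in HOMO hearts, 58.8, 50.1 and 51.2 CPM in HET hearts, and 60.1 and 66.8 CPM in WT hearts, with log2 fold changes of -0.31 and -0.25 that did not pass (adjusted p = 0.0925 and 0.170, edgeR). Mrps16 had 49.98, 50.23 and 49.64 CPM in HOMO hearts, 55.3, 43.9 and 50.6 CPM in HET hearts, and 54.3 and 107 CPM in WT hearts. WT 1 lay within the range of the HET hearts, and only WT 2 stood apart. Its log2 fold changes of -0.69 in each genotype passed narrowly (adjusted p = 0.0466 and 0.0465) and were -0.09 in each without WT 2 (0.753 and 0.734). Of the other leave-outs, only the one without WT 1 kept the call in either genotype (adjusted p = 0.0626 to 0.14 in the others).

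Mrpl45, which ties the large subunit to the inner membrane near the tunnel exit, had 71.9, 68.1 and 71.5 CPM in HOMO hearts, 71.5, 70.9 and 72.8 CPM in HET hearts, and 75.3 and 73.3 CPM in WT hearts. The 8 hearts lay close together, with log2 fold changes of -0.08 and -0.05 (adjusted p = 0.619 and 0.748, edgeR). Mrps30, large-subunit by structure, overlapped between groups, at 54.1, 42.8 and 46.9 CPM in HOMO hearts, 58.9, 44.6 and 45.4 CPM in HET hearts, and 45.8 and 54.7 CPM in WT hearts. Mrps36 of the oxoglutarate dehydrogenase complex had 68.9, 71.6 and 65.1 CPM in HOMO hearts, 81.6, 63.6 and 63.9 CPM in HET hearts, and 76.3 and 99.98 CPM in WT hearts; it did not pass (log2 -0.36 and -0.34, adjusted p = 0.102 and 0.124) except without WT 1 (-0.54 and -0.52, adjusted p = 0.0173 and 0.0218), and 4 pseudogene copies match its coding sequence.

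The second deleted allele was tested by setting HOMO against HET hearts, a comparison that uses no wild-type heart for its means. No member passed, and 0.0% of all genes did. No member had an unadjusted p below 0.05 in the edgeR fit of all 8 hearts, by DESeq2 or by limma-voom, and 1 member had one in each of 5 other edgeR fits (HOMO and HET hearts alone, without WT 1, without WT 2, and the correction for transcript properties described below, with and without WT 2). Log2 fold changes ran from -0.19 to 0.24, with medians of -0.05 for the Mrpl and -0.02 for the Mrps genes. Over all genes, 411 of 15075 had an unadjusted p below 0.05 in the edgeR fit of all 8 hearts, which takes its spread over the WT hearts too. In the edgeR fit of HOMO and HET hearts alone, 741 of 14487 did, and 0 passed after adjustment. DESeq2 called 2 genes and limma-voom 1. Mrpl14 had the smallest p of the members (log2 0.24, SE 0.14, adjusted p = 0.9996, edgeR). It was followed by Mrpl2, a protein next to the peptidyl transferase centre, with a log2 value of 0.18 (SE 0.11). Mrpl2 had 92.5, 82.3 and 82.1 CPM in HOMO hearts, 79.5, 74.7 and 72.9 CPM in HET hearts, and 101 and 123 CPM in WT hearts. HOMO hearts lay wholly above HET hearts in Mrpl14 and Mrpl2, and wholly below in Mrpl23 and Mrps22, beside 6.19% of all genes wholly above and 5.15% wholly below. Against wild type Mrpl2 passed in both genotypes (-0.38 and -0.56, adjusted p = 0.0411 and 0.00798). In HOMO it lost the call in each leave-out except that of WT 1 (adjusted p = 0.0555 to 0.345), and in HET without WT 2 (0.0685).

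Fold changes against wild type followed the make-up of the transcripts in these libraries, and the members differ from other genes in that make-up. Their median transcript length was 1224.5 bases, beside 2715 over all coding genes tested, and their median 3' UTR was 316 bases, beside 834. The 27 members lower in HOMO had a median transcript of 937 bases, a 3' UTR of 227.5 bases and 54.0% GC. The 48 members not called had 1310 bases, 430 bases and 49.4% GC. Across the 78 members, the HOMO log2 fold change had a Spearman correlation of 0.41 with transcript length and -0.49 with GC content. Over all 13915 coding genes with these properties the correlations were 0.39 and -0.43; genes share the same 8 libraries and are not independent.

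With a smooth trend on these properties (length, 3' UTR and GC) removed from each library, 5 Mrpl and 6 Mrps genes were lower in HOMO hearts and 1 and 2 were higher, where 5.73% of all genes were lower and 8.68% higher. In HET hearts 5 and 6 were lower and 1 and 1 higher, where 5.38% and 8.06% of all genes were. The HOMO medians became 0.00 for the Mrpl genes and -0.17 for the Mrps genes, and the HET medians 0.02 and -0.17. Called as counted and again after the correction, in both genotypes, were Mrpl17, Mrpl51, Mrpl58, Mrps16, Mrps26 and Mrps35 as lower, and Mrpl9 and Mrps22 as higher. These 6 lower members have long 3' UTRs, of 1940 to 3656.5 bases, and the correction moved each of them further below 0 in both genotypes. Mrps16 as counted was at -0.09 in each genotype without WT 2. Mrps31 held in HOMO (0.57, adjusted p = 0.0410, edgeR) and not in HET (0.52, adjusted p = 0.0580). After the correction and without WT 2, 3 Mrpl genes and 1 Mrps gene were lower in each genotype, beside 1.3% and 1.29% of all genes in HOMO and HET.

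The correction took 21 of 30 calls in HOMO and 22 of 30 in HET. Lost in both genotypes were Mrpl28, Mrpl14, Mrpl23, Mrps34, Mrps6, Mrps18a, Mrps18b, Mrps12, Mrps21, Mrpl2, Mrpl38, Mrpl52, Mrpl54, Mrpl55, Mrps7, Mrps9, Mrps15 and Mrps17. The other losses were Mrpl12, Mrpl20 and Mrpl27 in HOMO, and Mrpl44, Mrpl47, Mrpl50 and Mrps31 in HET. In HOMO the corrected log2 values included -0.28 for Mrpl28 (adjusted p = 0.165, edgeR), -0.10 for Mrpl14 (adjusted p = 0.613), -0.36 for Mrpl23 (adjusted p = 0.125) and -0.28 for Mrps34 (adjusted p = 0.186). It left Mrps22 at 0.94 and 0.97 (adjusted p = 0.00436 and 0.00387) and Mrpl58 at -0.95 and -0.98 (adjusted p = 0.00767 and 0.00717) in HOMO and HET. It also brought in members that had not been called: Mrpl48, Mrpl57, Mrps5, Mrps14 and Mrps25, with 3' UTRs of 599 to 5497 bases, were lower in both genotypes. Mrps25 went the furthest, with -0.88 and -0.87 (adjusted p = 0.00990 and 0.0111) after the correction and -0.24 and -0.23 as counted. Across the members the correlation with transcript length turned to -0.30 and that with 3' UTR length to -0.39, whereas over all genes they became 0.01 and 0.02. The trend was fitted over all genes and not over the members.

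**Figure D4:**
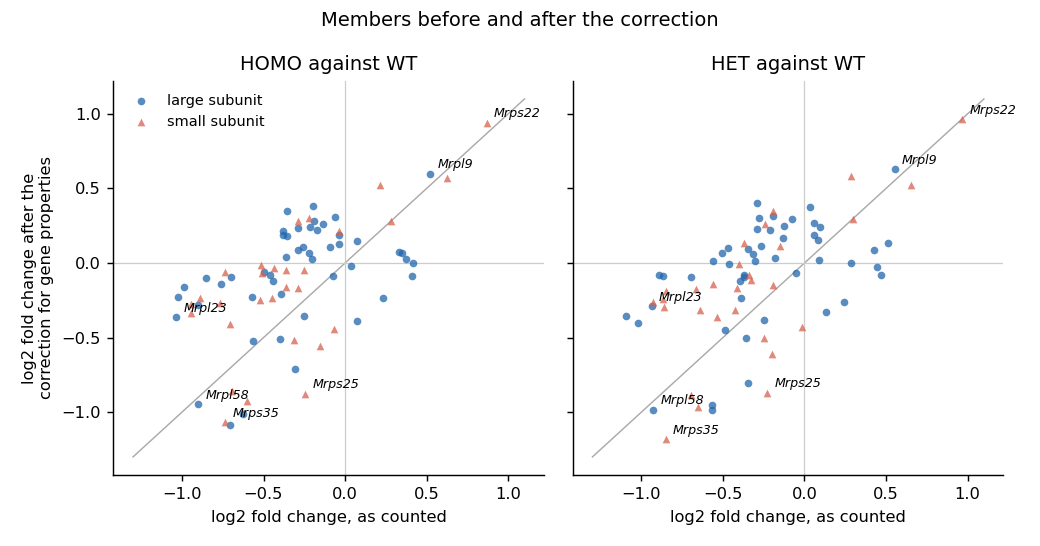
Log2 fold changes of the 78 members as counted (horizontal axis) and after removal of the trend on transcript properties (vertical axis), HOMO against WT on the left and HET against WT on the right; the grey diagonal marks no change by the correction. Mrps22, Mrpl9 and Mrpl58 lie on or near the diagonal, Mrpl23 moves towards 0 and Mrps25 moves away from it.

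Promoter sequences are shown for the members called in both genotypes under all 18 alternatives and for examples with and without a searched motif. RefSeq windows of 250 bases before to 50 after the start (GRCm38.p6) matched 69 of the 78 members. The last 100 bases before the start follow, 5' to 3' on the gene's strand, with motif matches in capitals.
Mrps22, higher, chr9:98601680-98601779, minus strand, ETS motif: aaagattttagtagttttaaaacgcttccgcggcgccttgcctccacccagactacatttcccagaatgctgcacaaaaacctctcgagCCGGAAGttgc
Mrpl9, higher, chr3:94443236-94443335, plus strand, NRF1 motif: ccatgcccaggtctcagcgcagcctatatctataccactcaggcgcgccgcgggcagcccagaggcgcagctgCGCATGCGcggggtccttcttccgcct
Mrpl58, lower, chr11:115403652-115403751, plus strand, ETS motif: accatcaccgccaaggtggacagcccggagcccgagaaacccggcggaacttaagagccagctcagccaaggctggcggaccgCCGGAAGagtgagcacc
Mrpl28, lower, chr17:26123403-26123502, plus strand, no match to the searched motifs: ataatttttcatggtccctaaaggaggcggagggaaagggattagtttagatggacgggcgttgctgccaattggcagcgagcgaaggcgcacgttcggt

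The motifs were searched on both strands of the 300-base windows, and none of the searched words contains another. The ETS-family word CCGGAAG was in 24 of 69 member windows (34.8%), beside 16.6% of 11472 windows of all genes tested. The YY1 word AAGATGGC was in 17.4% of member windows, beside 4.26%. The core CGCATGCG of the NRF1 word, of the nuclear respiratory factor, was in 10.1%, beside 3.6%. The E-box CACGTG was in 7.25% and the TATA word TATAAA in 5.8%, beside 9.89% and 7.53%. The ERR word TCAAGGTCA was in none, beside 0.279%. The ETS word was in 10 of 23 windows of members lower in HOMO and in 14 of 46 windows of the other members, and it stood before the riser Mrps22 and the faller Mrpl58 alike. A match is a run of letters, not a shown binding site.

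Members often share a start region with another gene. By GENCODE starts, a coding gene facing away on the other strand started within 1000 bases of 19 of 78 members (24.4%), beside 9.98% of all coding genes tested, and no such partner was a member. The count allowed only a small overlap of the starts. Mrps11 and Mrpl46, a small- and a large-subunit gene, are outside it because their GENCODE starts overlap by more. Mrps11 starts at 78783119 on the plus strand and Mrpl46 at 78783531 on the minus strand. Their exons overlap over 8.0% and 12.2% of their exonic bases. Their RefSeq starts face away from each other on chromosome 7 with 41 bases between them, which are shown here because both genes are members: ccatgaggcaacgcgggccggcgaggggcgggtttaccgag (chr7:78783090-78783130, plus strand, GRCm38.p6). Mrps11 had 17.9, 20.5 and 20.2 CPM in HOMO hearts, 22.6, 16.1 and 19.1 CPM in HET hearts, and 19.6 and 25.9 CPM in WT hearts. Mrpl46 had 35.3, 44.0 and 40.4 CPM in HOMO hearts, 47.4, 40.6 and 40.1 CPM in HET hearts, and 42.3 and 47.7 CPM in WT hearts. Neither passed (log2 -0.22 and -0.17 in HOMO, adjusted p = 0.402 and 0.383, edgeR), and after the correction both values were above 0 (0.30 and 0.22, adjusted p = 0.214 and 0.254).

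Of the 5 other lists of mitochondrial translation genes, the mitoribosome proteins with other symbols had medians of -0.54 in HOMO and -0.47 in HET. The translation factors had medians above 0. The mitoribosome assembly factors had medians of -0.007 in HOMO and -0.115 in HET, and the tRNA synthetases 0.046 and -0.073. The genes of mitochondrial DNA expression had 0.009 and 0.108. The counts of every list as counted stand against the same shares over all genes, 12.4% lower and 15.3% higher in HOMO, and 12.8% and 15.2% in HET. After the correction those shares were 5.73% and 8.68% in HOMO, and 5.38% and 8.06% in HET. Of 18 translation factors tested, 8 were higher and 1 lower in HOMO, and 8 higher and 2 lower in HET, with medians of 0.40 and 0.38. Taco1, an activator of COX1 translation, had 62.9, 54.6 and 59.6 CPM in HOMO hearts, 53.9, 56.9 and 46.7 CPM in HET hearts, and 20.3 and 10.9 CPM in WT hearts. It was higher by log2 1.92 in HOMO and 1.76 in HET (adjusted p = 0.000551 and 0.000718, edgeR). Mtif2, the initiation factor that places the initiator tRNA, had 79.7, 74.4 and 74.3 CPM in HOMO hearts, 79.8, 82.4 and 70.8 CPM in HET hearts, and 42.5 and 36.1 CPM in WT hearts, with log2 values of 0.95 and 0.98 (adjusted p = 0.000728 and 0.000651). Tufm, the elongation factor that brings tRNAs to the ribosome, was lower, at 234, 188 and 203 CPM in HOMO hearts, 185, 178 and 188 CPM in HET hearts, and 285 and 332 CPM in WT hearts (log2 -0.57 and -0.75, adjusted p = 0.0114 and 0.00308). The HOMO call of Tufm was lost without HOMO 2 or WT 2 (-0.49 and -0.42, adjusted p = 0.0503 and 0.0795). After the correction 4 factors were higher and 0 lower in each genotype, Taco1 and Mtif2 among them.

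Mitoribosome proteins with other symbols gave 2 lower and 1 higher of 5 in HOMO, and 3 lower and 1 higher in HET. After the correction their medians were -0.106 and -0.142 in HOMO and HET, with 0 lower and 1 higher in each. Without WT 2 the medians were -0.112 and -0.183. Ptcd3, a small-subunit protein with RNA-binding repeats, was the higher one: it had 155, 146 and 157 CPM in HOMO hearts, 159, 155 and 136 CPM in HET hearts, and 92.5 and 65.4 CPM in WT hearts (log2 0.95 and 0.92, adjusted p = 0.00223 and 0.00232, edgeR). Of 24 assembly factors, 4 were higher and 1 lower in HOMO, and 4 higher and 2 lower in HET. Gtpbp10, a GTPase of large-subunit maturation, had 26.2, 32.4 and 31.5 CPM in HOMO hearts, 29.1, 29.6 and 30.5 CPM in HET hearts, and 14.5 and 15.5 CPM in WT hearts (log2 0.998 and 0.985, adjusted p = 0.00110 and 0.00111). Ptcd3 and Gtpbp10 kept these calls in each leave-out and after the correction.

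Of 17 mitochondrial tRNA synthetases, 3 were higher and 2 lower in HOMO, and 4 higher and 3 lower in HET. Of 20 genes that copy and transcribe mitochondrial DNA or process its RNA, 8 were higher and 1 lower in HOMO, and 6 higher and 1 lower in HET. Trmt10c, a subunit of mitochondrial RNase P, had 24.9, 28.3 and 25.3 CPM in HOMO hearts, 30.7, 27.0 and 30.5 CPM in HET hearts, and 14.2 and 11.0 CPM in WT hearts (log2 1.06 and 1.23, adjusted p = 0.00143 and 0.000666, edgeR). Pnpt1, an exoribonuclease of mitochondrial RNA, had 41.92, 41.86 and 41.17 CPM in HOMO hearts, 43.74, 42.86 and 39.98 CPM in HET hearts, and 23.87 and 18.96 CPM in WT hearts (log2 0.96 and 0.98, adjusted p = 0.000997 and 0.000849). Nars2, the mitochondrial asparaginyl-tRNA synthetase, was higher too, at 21.04, 19.73 and 19.6 CPM in HOMO hearts, 19.33, 20.72 and 19.53 CPM in HET hearts, and 12.22 and 10.26 CPM in WT hearts (log2 0.84 and 0.82, adjusted p = 0.00333 and 0.00342). After the correction the synthetases had 1 higher in HOMO and 2 in HET, this last list had 4 higher in each, and neither had a lower gene. Without WT 2 the median log2 fold changes in HOMO and HET were 0.378 and 0.289 for the translation factors and 0.042 and 0.015 for the assembly factors. They were 0.162 and 0.088 for the synthetases, and 0.094 and 0.203 for the genes of mitochondrial DNA expression. No gene of the 5 lists passed between HOMO and HET.

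**Figure D5:**
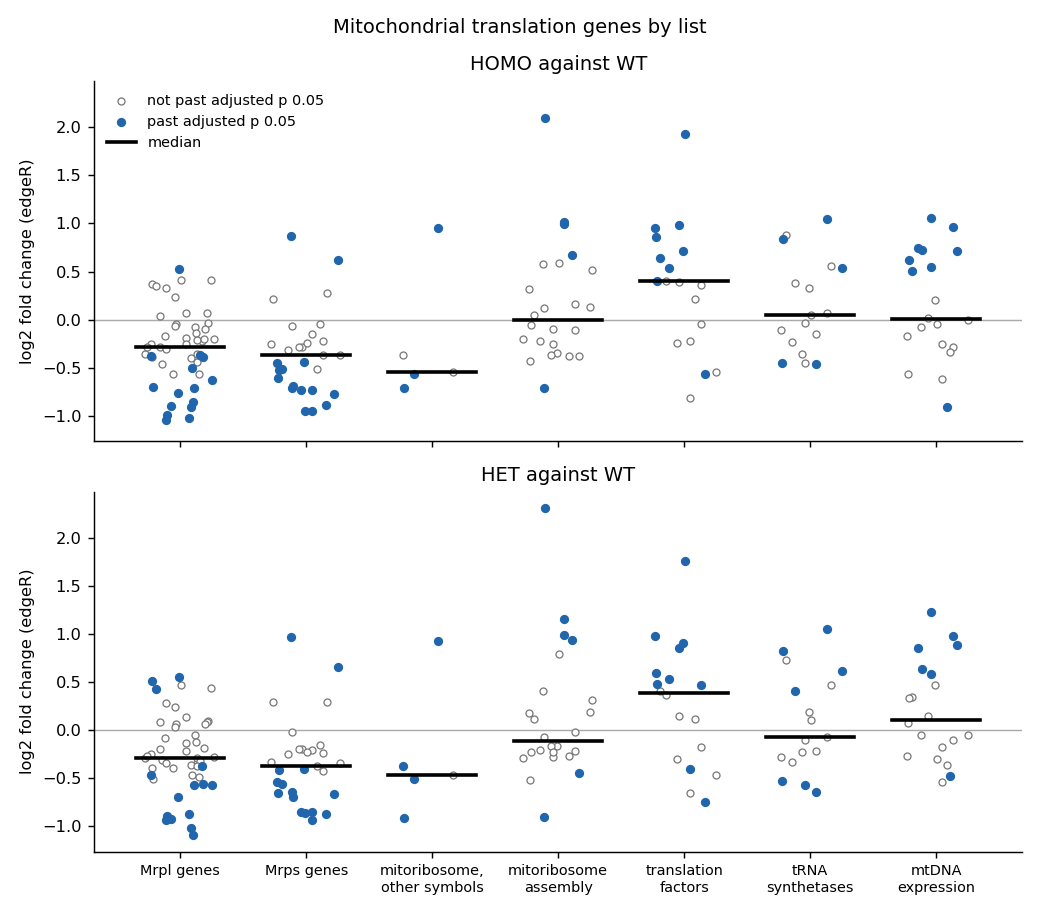
Log2 fold changes (vertical axis) for the members and for 5 other lists of mitochondrial translation genes, HOMO against WT above and HET against WT below; filled points passed the adjusted p of 0.05 and bars are medians. Filled points lie mostly below 0 for the Mrpl and Mrps genes and mostly above 0 for the translation factors and the genes of mitochondrial DNA expression.

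Markers of cell types moved as well. Their counts stand beside 12.4% of all genes tested lower and 15.3% higher in HOMO, and 12.8% and 15.2% in HET. The 10 ventricular cardiomyocyte markers summed to 77340 to 85640 CPM in HOMO hearts, 77740 to 81130 CPM in HET hearts, and 89220 and 103800 CPM in WT hearts, with 3 lower and 2 higher in HOMO. The 12 endothelial markers summed to 1312 to 1623, 1370 to 1524, and 1986 and 2015 CPM in HOMO, HET and WT hearts, with 6 lower and 0 higher in HOMO. The atrial markers Myl4, Myl7, Sln and Dkk3 set the groups apart further than any member did. Of 7 tested, 4 were lower and 1 higher in each deletion genotype, with median log2 fold changes of -2.925 in HOMO and -2.942 in HET. Without WT 2 the medians were -2.544 and -2.362, and after the correction -2.577 and -2.422. Myl7, the atrial myosin light chain, had 0.3664, 0.2788 and 0.1771 CPM in HOMO hearts, 0.2722, 0.5322 and 0.6841 CPM in HET hearts, and 6.593 and 14.24 CPM in WT hearts. Myl4, Sln and Dkk3 likewise lay higher in both WT hearts than in any deletion heart. Gja5 differed less, at 4.29 to 4.96, 3.81 to 5.89, and 7.44 and 7.35 CPM in HOMO, HET and WT hearts. Nppa overlapped between the groups, at 102 to 362, 93.1 to 415, and 283 and 514 CPM. The sums over the list, 837 to 1139 CPM in HOMO, 795 to 1181 CPM in HET, and 799 and 960 CPM in WT, overlapped; Pam, the marker that was higher in the deletion hearts, made up 725 to 779, 692 to 857, and 464 and 369 CPM of them. Fibroblast markers summed to 1486 to 2019, 1722 to 2125, and 2656 and 1591 CPM, and macrophage markers to 491 to 499, 496 to 711, and 581 and 510 CPM, in the same order of genotypes. Smooth muscle markers summed to 1577 to 1736, 1551 to 1903, and 1572 and 1857 CPM. Of these 10 markers, 3 were lower and 1 higher in HOMO, and 6 lower and 1 higher in HET. Adipocyte markers summed to 611 to 782, 635 to 1072, and 935 and 1289 CPM. In each deletion genotype 1 of the 3 tested was lower and 0 higher, with medians of -4.304 in HOMO and -4.775 in HET. Without WT 2 these medians were -2.141 and -2.619, and only 2 of the 8 adipocyte markers averaged at least 1 CPM. Erythroid markers summed to 12.5 to 54.4, 31.0 to 55.6, and 24.6 and 43.1 CPM. The globin genes Hba-a1, Hba-a2, Hbb-bs and Hbb-bt were at 0 in all hearts. The part of these markers in the members' differences was not tested.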

How the data were processed

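RNA of 8 hearts was sequenced, and the authors deposited 1 table of raw counts per gene symbol, without normalization. The submitters' processing notes list Trimmomatic 0.36, HISAT2, Subread with featureCounts, and DESeq2, and the mm10 build. No annotation, strand setting or rule for multi-mapping reads is named in these sources. Gene positions and properties come from GENCODE M21 (GRCm38), which held 96.9% of the symbols and all 78 members.

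Counts were filtered by filterByExpr and scaled by TMM in edgeR 4.0.16 (R 4.3.3), and all 8 libraries entered 1 robust quasi-likelihood fit with a mean per genotype, because WT has only 2 hearts. The two-sided F test was adjusted by Benjamini-Hochberg over 15075 genes, with a threshold of 0.05. P-values measure only the spread between these samples, which may be technical; nothing but the shared litter is said of their origin. The correction for transcript properties used splines (4 df each) on the deviation of each library from the mean log2 CPM, removed as an offset, for 13915 genes.

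Alternatives were DESeq2 size factors, library totals, no filter, the DESeq2 1.42.0 test, limma-voom (limma 3.58.1), a fit of the compared groups alone, a block for the replicate number, the correction alone, with that block or without WT 2, each library left out, and members sorted by structure. Fits were tested on simulated counts. Counting error is small beside the spread between hearts at this depth. Within groups, pairs of libraries gave chi-square values of 23.4 to 110 per degree of freedom, above sampling noise, so none was counted as a duplicate.

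The members, lists and tests were chosen with earlier results of these data known. Named genes were, per comparison with WT, subunit and direction, the 4 called members with the smallest p; for HOMO against HET the 2 with the smallest p; a panel of members with a known role; and the highest and lowest member per kilobase. From each list of other genes, up to 3 per comparison by smallest p were eligible. Tufm met that rule in HET only. Mrps11 and Mrpl46 were added for their shared start region. Members that the correction gained, kept or lost beyond that rule, and the markers named, were chosen after their values were seen. The NRF1 core was chosen after a longer word had been searched.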

Additional observations from a re-analysis of the deposited data

How the results depend on the processing

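The limits are the 2 wild-type hearts, of which WT 2 stands apart, the transcript properties that go with the fold changes, and unknown counting rules for overlapping and copied genes. Without 1 heart, lower Mrpl genes numbered 4 to 22 in HOMO and 3 to 22 in HET, lower Mrps genes 2 to 17 in HOMO and 2 to 16 in HET, higher Mrpl genes 0 to 3 and 1 to 4, and higher Mrps genes 1 to 2 in each genotype. The shares of all genes called moved as well. Without WT 2, 3.58% were lower in HOMO and 4.62% in HET, and 10.1% and 10.5% were higher. Without WT 1, 16.6% and 16.7% were lower, and 19.8% and 19.2% were higher. Each of these fits rests on 1 wild-type heart. Without single HOMO hearts, 10.5% to 11.8% of all genes were higher in HOMO.

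With the compared groups alone, 9 Mrpl and 8 Mrps genes were lower in HOMO, and 6 and 6 were lower in HET, with 0 and 1 higher, where 9.12% of all genes were lower in HOMO, and 7.42% lower and 10.6% higher in HET. The correction gave 5 and 6 lower in each genotype, with 1 and 1 higher in HET. The correction without WT 2 gave 3 and 1 lower in each, with 0 and 1 higher, beside 4.31% and 3.95% of all genes higher in HOMO and HET. DESeq2 gave 2 higher Mrpl genes in HOMO, where 2613 of all 24516 genes were higher. That total includes genes without counts, so its share has a wider base than the other backgrounds. Library totals gave 5 higher Mrpl genes in HET (background 14.7%). Over all genes the correction gave 797 lower and 1208 higher in HOMO, against 1872 and 2308 as counted, and 749 and 1122 in HET, against 1924 and 2295. The cause of these shifts was not tested. Of 36 calls of the named members, DESeq2 size factors took 0, the correction 25 and the fit without WT 2 22.

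With the replicate number as a block, 7 Mrpl and 8 Mrps genes were lower in each genotype (background 8.98% in HOMO and 9.28% in HET), and with the correction as well 3 and 5 (4.41% and 3.51%), with 1 higher Mrpl gene in HET (6.01%). Same-numbered hearts did not deviate together throughout: r was 0.177, 0.138 and -0.023 between HOMO and HET, and -0.006 to 0.024 with WT. The number was therefore not taken as a pairing in the main fit. These correlations cannot exclude a pairing, since deviations within such small groups are tied to each other.

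Other called members than those named by rule changed sign in some alternative. These were Mrpl38, Mrpl54 and Mrps15 in both genotypes, Mrpl27 and Mrps9 in HOMO, and Mrpl52 and Mrps7 in HET. Mrpl38 was at 0.191 in HOMO and 0.098 in HET after the correction. Among the members named by rule, signs reversed for the following log2 fold changes. Of these, Mrps12 and Mrpl12 in HOMO and Mrpl2 in both genotypes had been called as counted. Under the correction, the correction with the replicate block, and the correction without WT 2, HOMO values became 0.2165, 0.2369 and 0.1978 for Mrpl2, 0.0845, 0.0878 and 0.0738 for Mrpl10, 0.0703, 0.048 and 0.0035 for Mrpl44, 0.1871, 0.1663 and 0.0855 for Mrpl42, and -0.3906, -0.3132 and -0.1749 for Mrpl19. HET values became 0.1171, 0.1191 and 0.1015 for Mrpl10, -0.3256, -0.2430 and -0.1050 for Mrpl19, and, under the first pair, 0.0156 and 0.0395 for Mrpl2. With the replicate block and the correction, HOMO values were -0.0021 for Mrpl47 and 0.0020 for Mrps36, and HET was -0.0424 for Mrpl3. Without WT 2 and corrected, HOMO values were 0.0619 for Mrps12 and 0.1432 for Mrpl12, and HET was 0.1918 for Mrpl12. Over the 8 leave-outs, Mrps30 ran from -0.1834 to 0.0990 in HOMO (0.0105 without HOMO 2) and from -0.1345 to 0.1462 in HET (0.0600 and 0.0464 without HET 2 and HET 3), and in HET it was 0.0134 with library totals and 0.0013 with the replicate block. Mrpl42 ran from -0.1369 to 0.1164 in HOMO and from -0.0061 to 0.2458 in HET, and Mrpl19 from -0.0143 to 0.2055 in HOMO.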
